A study of Mus musculus with 6 samples.

Results

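Replication-dependent histone genes encode the bulk of the proteins around which DNA is wound, and 46 of the 17550 genes in the kidney expression table belong to this family. They were taken by name and not by level: every protein-coding row whose symbol is that of a clustered H1, H2A, H2B, H3 or H4 gene. As a family they were chosen by a measured value, the KC-Tie2 over Control difference of H3c2 and H3c3, which was already known, so the differences between genotypes given here are a description of the family and not independent support for it. The libraries came from saline-perfused mouse kidneys of 2 genotypes, KC-Tie2 (3 libraries) and Control (3 libraries). KC-Tie2 mice develop psoriasis-like skin disease because their keratinocytes, a skin cell type, carry a transgene for the receptor Tie2. The labels give no other allele, treatment, strain, sex, age or litter for either genotype, and do not say whether each library came from its own animal. The p-values therefore measure only the spread between these libraries, which may be technical.

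H2A, H2B, H3 and H4 are the core histones, and H1 is the linker histone that sits on the DNA between nucleosomes. Cells make most of these proteins in S phase, when newly copied DNA has to be packaged, and E2F and NPAT-dependent transcription drives the genes at that time. Their mRNAs typically end just after a stem-loop bound by the protein SLBP and carry no poly(A) tail, which sets them apart from other mRNAs. Poly(A)-tailed forms of some of the genes, ending downstream of the stem-loop, are also known. These libraries were made from poly(A)-selected RNA, so a value here is what that selection and the authors' gene models captured, and not the full amount of histone mRNA.

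The stem-loop was searched for in the GENCODE vM21 transcript models as GGNNNTTNTNANNNCC with a paired stem of 6 bases and a loop of 4, on the sense strand. It was found in the models of 36 of the 46 members, against 69 of 21901 protein-coding genes in all. The other 10 models hold no match, which says only that these letters are not in the model. The stem-loops of 7 members are printed because the results turn on these genes, with the 16 matched bases in capitals, 5 bases on each side in lower case, and T for U.
H3c2: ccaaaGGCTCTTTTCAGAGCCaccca
H3c3: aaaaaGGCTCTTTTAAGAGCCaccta
H3c1: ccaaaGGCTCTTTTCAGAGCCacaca
H4c8: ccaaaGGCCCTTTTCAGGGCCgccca
H1f2: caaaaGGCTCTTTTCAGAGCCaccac
H4c3: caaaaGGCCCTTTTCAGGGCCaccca
H2ac18: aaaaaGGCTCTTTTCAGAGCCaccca
H3c2, H3c1, H1f2 and H2ac18 share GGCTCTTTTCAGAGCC, the form of 18 members. H4c8 and H4c3 share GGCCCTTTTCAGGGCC, found in 6 members, all of them H4 genes. H3c3 has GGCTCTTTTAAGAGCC, found in 5 members. Genes with very different values in these kidneys carried the same 16 bases. Their models differed in the length after the stem-loop: 51 bases in H3c2, 74 in H3c3, 37 in H3c1, 46 in H4c8 and 35 in H2ac18, against 840 in H1f2 and 454 in H4c3.

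The 46 genes lie on 2 chromosomes in the mm39 coordinates of the deposited table. On chromosome 13, 37 members span positions 21901829 to 23948389, in a lower group of 12 and an upper group of 25. On chromosome 3, 9 members lie within 50.3 kb, from 96127181 to 96177448. By type there were 4 H1, 10 H2A, 11 H2B, 10 H3 and 11 H4 genes.

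The sum of the deposited values ranged from 23647811 to 25495455 per library, and the spacing of low values gave a depth of about 18800000 to 29500000 estimated counts. Of 14 marker genes of kidney tubule, podocyte and endothelium, 14 were measured, as the kidney label calls for, and 0 passed limma, with 7 higher and 1 lower at an unadjusted p under 0.05. Scnn1g, a sodium channel subunit, had 1235, 1488 and 1029 normalized counts in KC-Tie2 kidneys and 847, 869 and 970 in Control kidneys (limma adjusted p = 0.106). Its groups did not overlap. Of the 17539 genes tested with limma, 1.69% differed between KC-Tie2 and Control kidneys at an adjusted p under 0.05.

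Most of the family's value came from a few genes that differed little between genotypes. H1f2, H2bc4, H1f4, H4c8, H4c3 and H2ac19 together held 71.1% of it. H1f2, a linker histone gene, had the highest value, with 3662, 3238 and 3360 normalized counts in KC-Tie2 kidneys and 3262, 3393 and 3451 in Control kidneys. The groups overlapped, and the log2 fold change was 0.02 ± 0.07 (SE; limma adjusted p = 0.929). H2bc4, the highest H2B gene, had 2240, 2161 and 2725 in KC-Tie2 kidneys and 2688, 2488 and 2667 in Control kidneys (log2 fold change -0.15 ± 0.09, limma adjusted p = 0.481). H1f4 had 1798, 1575 and 1814 in KC-Tie2 kidneys and 1649, 1778 and 1862 in Control kidneys (log2 fold change -0.03 ± 0.08, limma adjusted p = 0.904). The KC-Tie2 values of H2bc4 and H1f4 also ran into the Control range. The sum over all 46 members was 16266 ± 925 in KC-Tie2 kidneys and 15375 ± 597 in Control kidneys (SD, n = 3 each), a ratio of 1.06 with overlapping libraries.

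Of the 4 members that differed between genotypes, 3 were H3 genes. H3c2, H3c3 and H3c1, which encode core histone H3, rose 2.54 to 3.84-fold, and H4c8, a core histone H4 gene, rose 1.24-fold. These 4 of 46 passed the limma test over all genes, and all 4 were higher in KC-Tie2 kidneys, where 0.855% of all genes tested passed in that direction. The family was taken up because H3c2 and H3c3 differed, and nothing is read from this count. In whole-tissue RNA, a change in the number of cells that express a gene cannot be told apart from a change in RNA per cell.

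H3c2 (ENSMUSG00000069267, chromosome 13, 23936250 to 23936869, plus strand) had 90.2, 104 and 49.8 normalized counts in KC-Tie2 kidneys, against 27.9, 13 and 20.2 in Control kidneys. Every KC-Tie2 library lay above every Control library, with KC-Tie2 3 the lowest of its group. The means were 81.4 ± 28.2 in KC-Tie2 kidneys and 20.4 ± 7.44 in Control kidneys (SD, n = 3 each), and the log2 fold change was 1.94 ± 0.35 (SE; limma adjusted p = 0.021). H3c3 (ENSMUSG00000069310, chromosome 13, 23928956 to 23929585, minus strand) had 98.2, 119 and 67.2 in KC-Tie2 kidneys, against 28.9, 20.4 and 23.3 in Control kidneys. The order of the KC-Tie2 libraries was that of H3c2, and the groups again did not overlap. The H3c3 means were 94.7 ± 25.9 in KC-Tie2 kidneys and 24.2 ± 4.31 in Control kidneys (SD, n = 3 each; log2 fold change 1.90 ± 0.27 SE, limma adjusted p = 0.00742). H3c1 (ENSMUSG00000069265, chromosome 13, 23945836 to 23946369, minus strand) had 112, 76.3 and 56.7 in KC-Tie2 kidneys, against 25.8, 35.5 and 30.5 in Control kidneys. The lowest KC-Tie2 value of H3c1 was above the highest Control value, and the log2 fold change was 1.35 ± 0.28 (SE; limma adjusted p = 0.036).

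H4c8 (ENSMUSG00000060981, chromosome 13, 23715220 to 23715689, plus strand) was the only called member among the abundant ones. It had 1911, 1730 and 1684 normalized counts in KC-Tie2 kidneys, against 1445, 1417 and 1427 in Control kidneys. The Control libraries lay close together and all KC-Tie2 libraries were above them (means of 1775 ± 120 in KC-Tie2 and 1430 ± 14.2 in Control, SD, n = 3 each; log2 fold change 0.31 ± 0.07 SE, limma adjusted p = 0.0473).

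The calls depended on single libraries to different degrees. Leaving out each library in turn, H3c3 kept its call in 5 of 6 fits and lost it without KC-Tie2 2 (limma adjusted p = 0.0582; range over the alternatives 0.00276 to 0.0582). H3c2 kept it in 3 of 6, losing it without KC-Tie2 1, KC-Tie2 2 or Control 3 (limma adjusted p 0.00741 to 0.124 over the alternatives). H3c1 kept it in 2 of 6, without KC-Tie2 3 or Control 2 (limma adjusted p 0.0141 to 0.17). H4c8 kept it in 1 of 6, without KC-Tie2 3 (limma adjusted p 0.0302 to 0.183). H3c1 and H4c8 also lost their calls with voom (limma adjusted p = 0.0642 and 0.0553) and with non-robust variance (0.0534 and 0.0616). The fold changes of these 4 genes were above 0 in all of these fits.

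**Figure D1:**
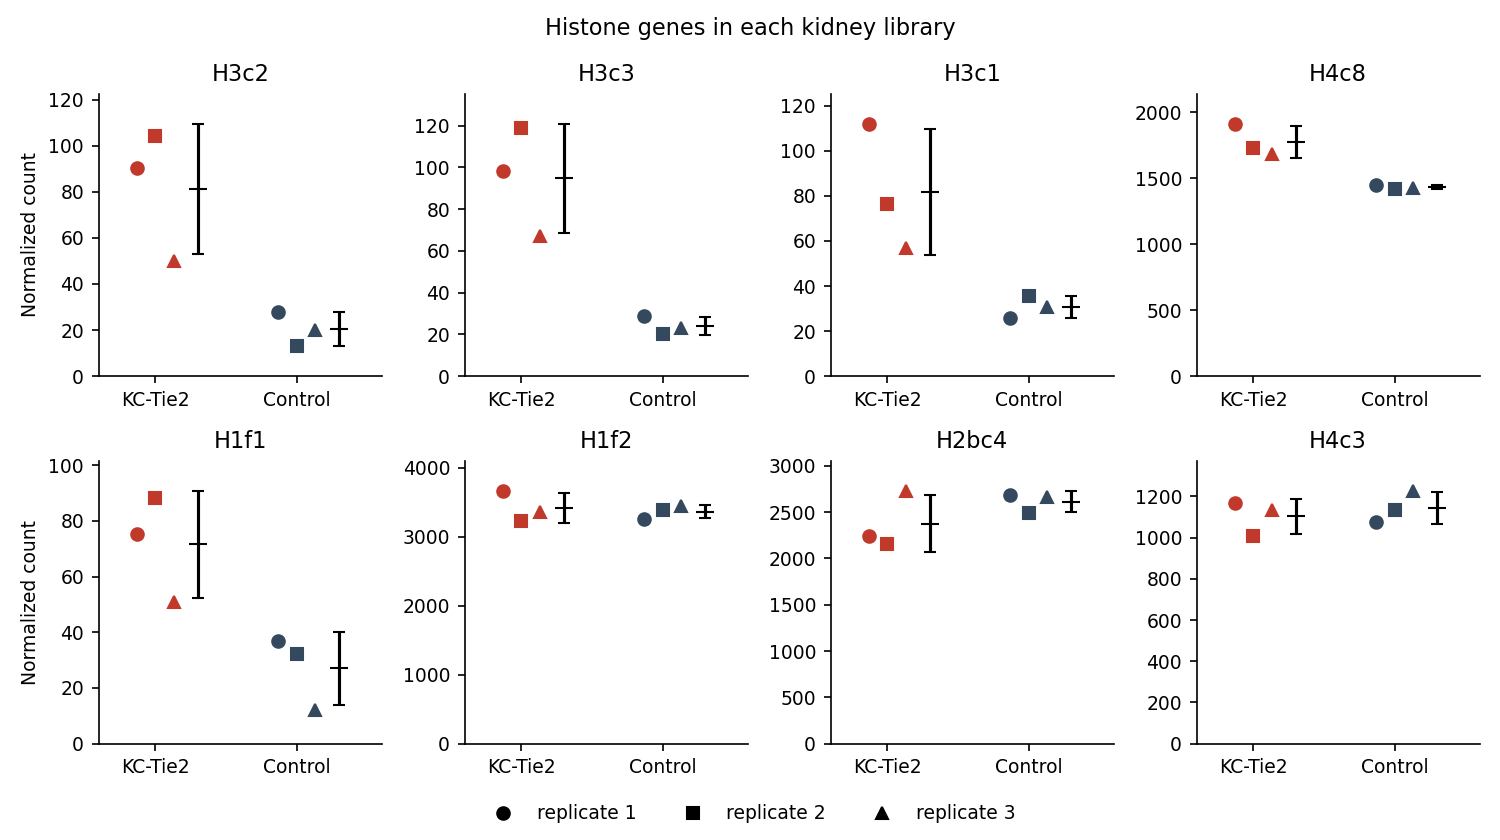
Normalized count (y axis, from 0) of 8 histone genes in the 3 KC-Tie2 and 3 Control kidney libraries. Points are libraries and bars are the mean ± SD. The KC-Tie2 libraries of H3c2, H3c3, H3c1, H4c8 and H1f1 lie above all Control libraries, while those of H1f2, H2bc4 and H4c3 overlap with them.

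The promoters of H3c2, H3c3, H4c8 and H1f2 are printed to set the called genes beside the most abundant one. Each run is the 150 bases before the start listed by RefSeq on GRCm38.p6, a build other than that of the table, read in the direction of transcription. Capitals mark 3 motifs, searched on both strands: the TATA box (TATAAA), the binding motif of the factor NF-Y (CCAAT), and a motif known from H1 promoters (AAACACA).
H3c2, chr13:23752195-23752344, plus strand: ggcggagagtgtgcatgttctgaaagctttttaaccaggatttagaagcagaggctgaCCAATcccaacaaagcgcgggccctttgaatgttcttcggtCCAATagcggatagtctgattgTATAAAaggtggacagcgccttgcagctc
H3c3, chr13:23745522-23745671, minus strand: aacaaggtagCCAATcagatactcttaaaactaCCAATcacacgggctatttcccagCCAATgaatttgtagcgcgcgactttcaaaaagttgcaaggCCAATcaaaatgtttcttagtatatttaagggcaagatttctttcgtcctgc
H4c8, chr13:23530894-23531043, plus strand: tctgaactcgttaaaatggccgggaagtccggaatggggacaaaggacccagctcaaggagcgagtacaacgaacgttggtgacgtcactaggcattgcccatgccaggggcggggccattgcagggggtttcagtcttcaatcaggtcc
H1f2, chr13:23738657-23738806, plus strand: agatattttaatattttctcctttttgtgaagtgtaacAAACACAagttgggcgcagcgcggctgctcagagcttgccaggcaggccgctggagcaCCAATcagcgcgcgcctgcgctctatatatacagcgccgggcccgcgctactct
H3c2 holds 1 TATAAA and 2 CCAAT, H3c3 holds 4 CCAAT, H1f2 holds 1 CCAAT and 1 AAACACA, and H4c8 holds none of them in this window. Promoters were available for 40 members. In the 250 bases before the start, CCAAT was found in 80.0% of them, against 37.5% of 27025 genes in all: 10 of 10 H2A, 8 of 8 H2B, 7 of 8 H3, 4 of 4 H1 and 3 of 10 H4 promoters. TATAAA was found in 47.5% of the members and in 14.3% of all genes. AAACACA was found in 4 of 40 members, 3 of them H1 genes, and in 7.2% of all genes. Some H2A and H2B members start from opposite strands of 1 stretch of DNA, so their windows share bases. A match is a description of the letters and not a binding site.

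Across the family, 36 members lay above 0 and 10 below in log2 fold change, and the median was 0.346, against 0.001 over all genes tested. In 11 members every KC-Tie2 library was above every Control library, where 9.96% of all genes did so. A log2 fold change of 1 or more was seen in 14 members, where 0.889% of all genes had it. At an unadjusted p under 0.05, 15 members were higher, where 7.57% of all genes were. These counts are no support for a change of the family, because the table holds only genes that reached a value of 24.78 in at least 1 library. Of the members, 8 reached it only in KC-Tie2 libraries and 1 only in Control libraries. How the limit was set is not stated. The value of 1 read, from the spacing of low values, ran from 0.826 in Control 2 to 1.353 in Control 3. The limit of 24.78 is a whole multiple of the Control 2 value. A limit set in reads would thus lie above 24.78 in the other libraries, and such counts are then too low. Under it, H3c2, H3c3, H3c10 and H2bc18 would also have entered only through KC-Tie2 libraries. RefSeq lists 62 protein-coding symbols that fit the naming rule, of which 17 were not analysed here.

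By level, the 13 members with a mean above 200 normalized counts had a median log2 fold change of 0.02, against -0.002 over all genes of that level. The 16 members between 50 and 200 had a median of 0.44, against 0.012 over all genes of that level. None of the members in the highest 13 or the middle 16 reached 24.78 in KC-Tie2 libraries alone. The highest Control values of H3c2 and H3c3, both in the middle 16, were 27.9 and 28.9, close above that value. Under a limit set in reads, both could have entered only through KC-Tie2 libraries, so nothing is read from the median of the middle 16. The 17 members with a mean under 50 had a median of 1.125, against 0.006 over all genes of that level, but 8 of them reached the limit of 24.78 only in KC-Tie2 libraries and 1 only in Control libraries. That limit moves their median and sum, and nothing is read from either. None of the 17 passed the limma test. H2ac10, an H2A gene among the 3 largest fold changes, had 53.4, 32.3 and 10.8 in KC-Tie2 kidneys and 1.51, 13.1 and 18.1 in Control kidneys. Its groups overlapped, and its log2 fold change of 1.66 had an SE of 0.84 (limma adjusted p = 0.401). Summed, the 17 low members had 719, 620 and 421 in KC-Tie2 kidneys, against 330, 376 and 327 in Control kidneys, under the same limit.

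**Figure D2:**
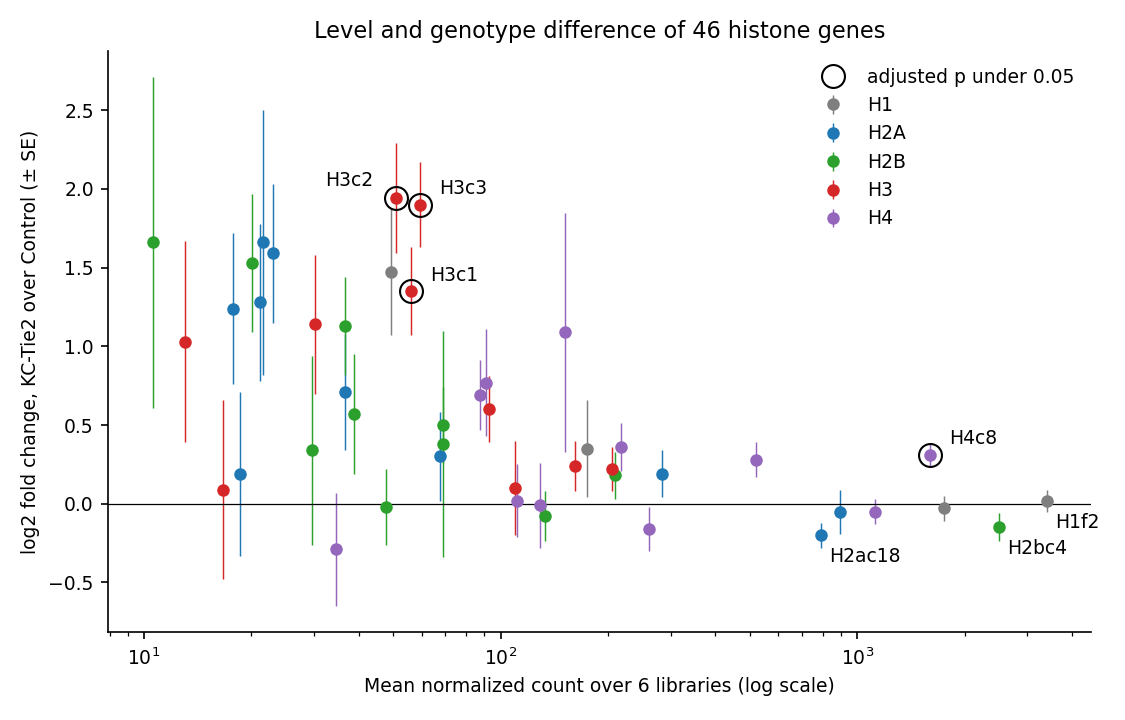
Log2 fold change of KC-Tie2 over Control (y axis, ± SE) against the mean normalized count over 6 libraries (x axis, log scale) for the 46 histone genes, coloured by type. Circled genes have a limma adjusted p under 0.05. The 13 genes with a mean above 200 lie between -0.20 and 0.36. Of the 17 genes with a mean under 50, 8 reached 24.78, the lowest limit for entering the table, only in KC-Tie2 libraries.

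The H3 and H4 sums did not overlap between genotypes. The 10 H3 genes summed to 1074, 1014 and 782 normalized counts in KC-Tie2 kidneys, against 627, 635 and 639 in Control kidneys. All KC-Tie2 libraries were higher, and the ratio of the means was 1.51. This sum holds H3c2 and H3c3, whose difference chose the family. The other 8 H3 genes summed to 886, 791 and 665 in KC-Tie2 kidneys, against 570, 602 and 596 in Control kidneys, a ratio of 1.33 without overlap. This sum was chosen after seeing the data. The log2 fold change of each of the 10 H3 genes was above 0, with a median of 0.817 over all 10 and of 0.421 without H3c2 and H3c3. Of these 10, H3c8 and H3c4 reached 24.78 only in KC-Tie2 libraries. Under a limit set in reads, H3c2, H3c3 and H3c10 would join them. Such genes could hardly have entered the table as lower, so nothing is read from the H3 sums, signs or medians. The H4 sum was 4619 ± 359 in KC-Tie2 kidneys and 4034 ± 112 in Control kidneys (SD, n = 3 each), at a ratio of 1.14. H4c8, a called gene, held 37.0% of the H4 value. The log2 ratio of the H4 sum was 0.2, and 0.13 without H4c8. The sums of the other 3 types overlapped between genotypes. H1 had 5411 ± 297 in KC-Tie2 kidneys and 5318 ± 236 in Control kidneys, H2A had 2176 ± 240 in KC-Tie2 and 2175 ± 298 in Control, and H2B had 3103 ± 216 in KC-Tie2 and 3214 ± 54.6 in Control (SD, n = 3 each). H3 thus made up 5.88% of the family's value in KC-Tie2 kidneys and 4.12% in Control kidneys, under the same limit. No test was made on the sums, since the members share reads and were chosen with the results known.

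**Figure D3:**
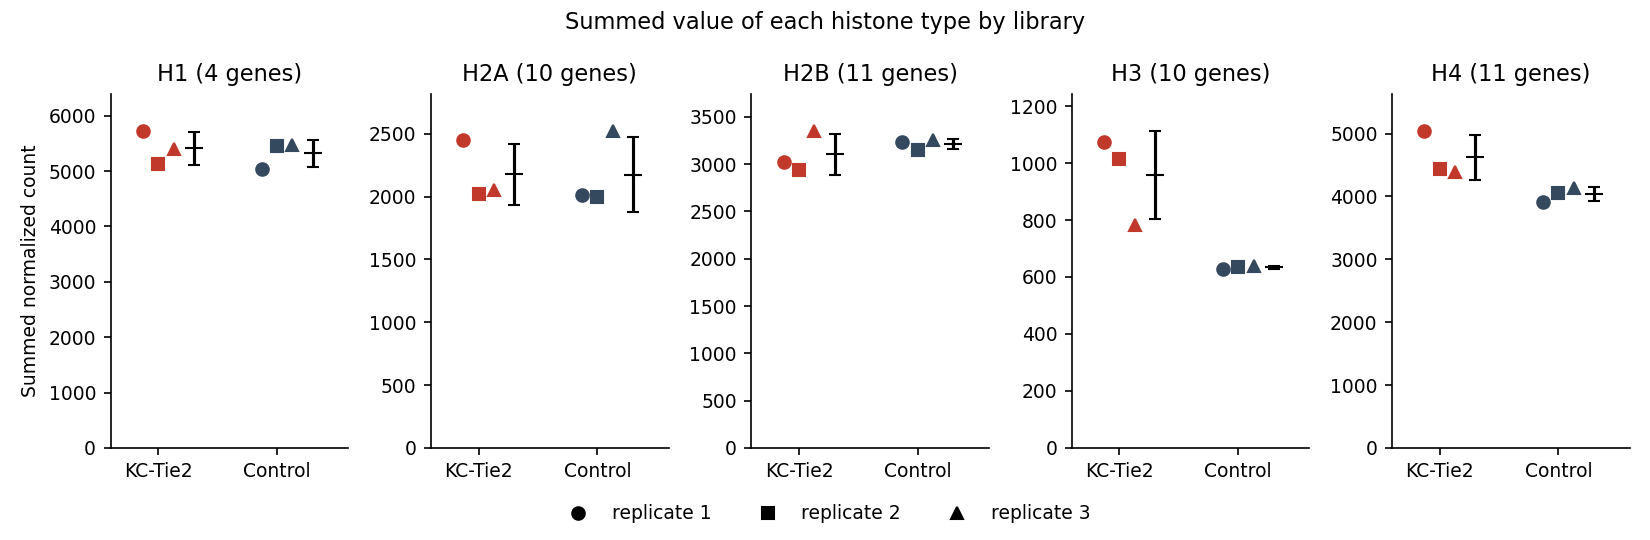
Summed normalized count of each histone type (y axis, from 0) in the 3 KC-Tie2 and 3 Control libraries. Points are libraries and bars are the mean ± SD. The H3 sum of 782 to 1074 in KC-Tie2 kidneys lies above the 627 to 639 of Control kidneys, and the H4 sums also do not overlap.

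Within H3, the genes for the H3.1 protein (H3c1, H3c8 and H3c10) and those for H3.2 both had higher sums in KC-Tie2 kidneys. H3.1 and H3.2 are near-identical forms of H3 made in S phase. The H3.1 genes summed to 159, 153 and 108 in KC-Tie2 kidneys, against 44, 62 and 69 in Control kidneys, a ratio of 2.4. The 7 H3.2 genes summed to 915, 861 and 674 in KC-Tie2 kidneys, against 583, 573 and 570 in Control kidneys, a ratio of 1.42, which was 1.21 without H3c2 and H3c3. Neither sum overlapped between the genotypes. Of the H3.1 genes, H3c8 reached 24.78 only in KC-Tie2 libraries, and H3c10 had at most 26.2 in a Control library. The limit for entering the table can thus push up the H3.1 ratio, and nothing is read from it. H3c4, an H3.2 gene, also reached 24.78 only in KC-Tie2 libraries, so nothing is read from the H3.2 ratio either. The H3 genes with the highest means, H3c7 and H3c6, did not pass. H3c7 had 252, 218 and 192 in KC-Tie2 kidneys and 183, 211 and 172 in Control kidneys (log2 fold change 0.22, limma adjusted p = 0.506). H3c6 had 189, 189 and 148 in KC-Tie2 kidneys and 138, 169 and 137 in Control kidneys (log2 fold change 0.24, limma adjusted p = 0.511). Per kilobase of gene model, H3c2 had a level of 131 in KC-Tie2 kidneys and 32.9 in Control kidneys, while H3c7 had a level of 175 in KC-Tie2 kidneys and 150 in Control kidneys.

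No member passed as lower, and 1 was lower at an unadjusted p under 0.05. This was H2ac18, an H2A gene on chromosome 3. It had 793, 694 and 720 in KC-Tie2 kidneys, against 823, 797 and 919 in Control kidneys. Its KC-Tie2 libraries were all below the Control libraries, as in 1761 of the 17539 genes tested (10%), and its log2 fold change of -0.20 ± 0.08 did not pass (limma adjusted p = 0.277). H4c11 had the lowest fold change of the family, with 28.7, 32.9 and 27.7 in KC-Tie2 kidneys and 21.1, 59.2 and 38.4 in Control kidneys (log2 fold change -0.29 ± 0.36, limma adjusted p = 0.779). H4c14 had 298, 224 and 220 in KC-Tie2 kidneys and 282, 254 and 284 in Control kidneys (log2 fold change -0.16, limma adjusted p = 0.652). Both sets of libraries overlapped. Of the other abundant members, H2ac19 (959, 790 and 872 in KC-Tie2, 831, 772 and 1141 in Control), H4c3 (1166, 1008 and 1136 in KC-Tie2, 1074, 1133 and 1225 in Control) and H2bc6 (236, 214 and 213 in KC-Tie2, 174, 241 and 178 in Control) overlapped between genotypes.

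H1f1 and H2ac4, picked after their values were seen, were near the threshold. H1f1, a linker histone gene with no 50-base window shared with another gene, had 75.5, 88.4 and 50.8 in KC-Tie2 kidneys, against 36.8, 32.2 and 12.2 in Control kidneys (log2 fold change 1.47 ± 0.40, limma adjusted p = 0.105). H2ac4 had 50.1, 35.9 and 19.9 in KC-Tie2 kidneys, against 7.58, 14.9 and 9.53 in Control kidneys (log2 fold change 1.59 ± 0.44, limma adjusted p = 0.105). Neither overlapped between genotypes. H2ac4 reached the limit of 24.78 only in KC-Tie2 libraries, so it could hardly have entered the table as a lower gene. In the authors' deposited table, which names the comparison KC-Tie2 against WT and whose FDR was under 0.05 at 3.91% of all genes, it was so at 6 members. In that table the ratio was 2.59 for H1f1 (FDR 0.0143) and 3.24 for H2ac4 (FDR 0.0365). The other 4 were H3c3, H3c2, H3c1 and H4c8, at ratios of 3.93, 4.03, 2.65 and 1.24 in the authors' deposited table. The 6 include H3c3 and H3c2, whose difference chose the family, and H2ac4, so nothing is read from this count.

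The called H3 genes lie close together. The last 8 members of the chromosome 13 cluster, from H3c3 to H1f1 (23928956 to 23948389, 19.4 kb), had a median log2 fold change of 1.41 (1.22 without H3c2 and H3c3), and 8 of 8 were above 0. The other 17 members of the upper group had a median of 0.241, with 13 above 0. The limit of 24.78 was reached only in KC-Tie2 libraries by 1 of the 8 and 4 of the 17. Under a limit set in reads, H3c3 and H3c2 would join the 1 of the 8, so nothing is read from these medians. This run was picked after the values were seen and has no test. It also holds H4c2, with a mean of 244 ± 34.4 in KC-Tie2 kidneys and 190 ± 33.1 in Control kidneys, and H4c1, whose libraries overlapped (172, 270 and 126 in KC-Tie2, 54.4, 46.1 and 237 in Control).

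The members were also described by annotated transcript end. The 19 members whose model ends within 100 bases of the stem-loop had a median log2 fold change of 0.692, and the 4 called genes were among them. The 17 members whose model runs on for 108 to 4884 bases had a median of 0.102 and no called gene. The 10 members with no stem-loop in the model had a median of 0.863. Of these groups, 4 of the 19, 2 of the 17 and 2 of the 10 reached 24.78 only in KC-Tie2 libraries. Another 1 of the 10 reached it only in Control libraries, so nothing is read from these medians. The short-ended members also had lower means, with a median of 68.7 normalized counts against 162 for the long-ended ones, so end and level cannot be told apart. The H4c8 and H2ac18 models, both short-ended and abundant, had log2 fold changes of 0.31 and -0.20.

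**Figure D4:**
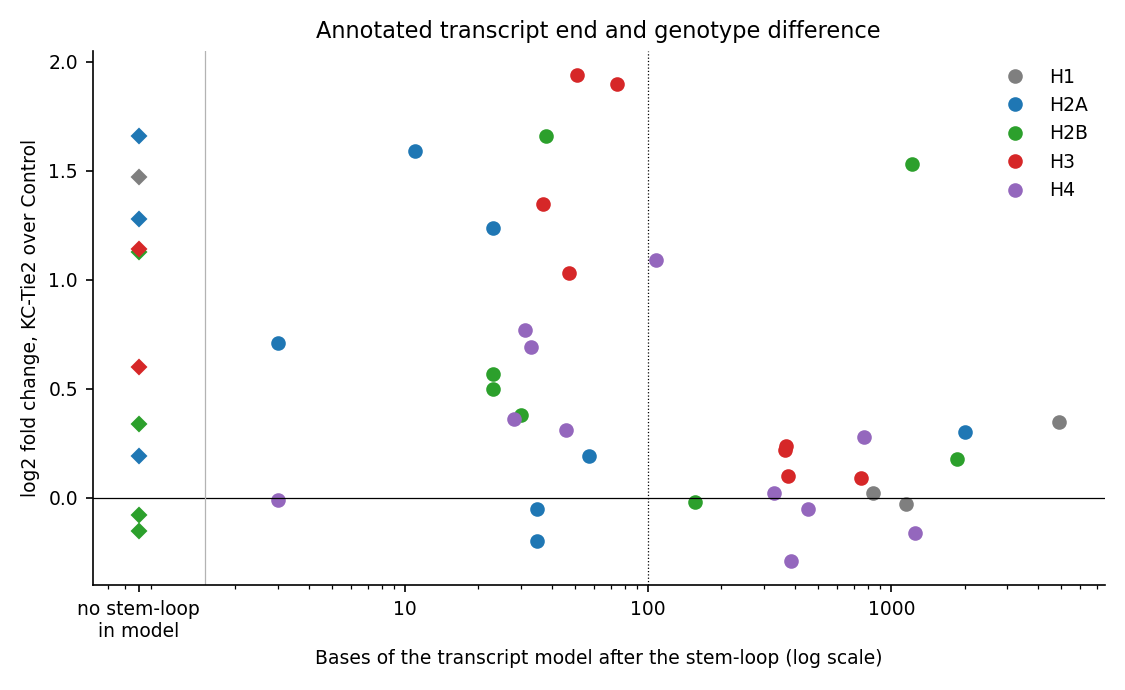
Log2 fold change of KC-Tie2 over Control (y axis) against the number of bases in the transcript model after the stem-loop (x axis, log scale) for the 46 histone genes, coloured by type. The dotted line is at 100 bases, and diamonds at the left are the 10 genes with no stem-loop in the model. The 4 called genes are among the 19 short-ended ones.

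Near-identical copies make the value of a single member uncertain. Of each member's 50-base windows, a median of 51.9% also occurred in another gene's transcripts, and 23 members shared over 50%. The share was 60.4% for H3c2, 47.0% for H3c3, 49.5% for H3c1 and 45.8% for H4c8. Of all genes' values under 60, 68.5 to 70.9% per library were whole multiples of the value of 1 read (tolerance 0.01), against 8.2% of the members' values under 60. Most of the members' values were thus not whole reads, and how shared reads were assigned is not stated, so the order among near-identical members is uncertain. In 6 members the gene's span also overlaps that of another gene of the table, among them H2bc6 with H1f4. An overlap of spans does not show that the transcript models overlap.

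Genes that work with the histones were checked from lists. Of the histone genes outside the naming rule, H2aw had 528, 506 and 496 in KC-Tie2 kidneys and 478, 455 and 509 in Control kidneys (limma adjusted p = 0.701), and H4f16 had 212, 206 and 180 in KC-Tie2 kidneys and 187, 218 and 246 in Control kidneys (limma adjusted p = 0.762). Of 11 histone variants listed as replication-independent, none passed limma and 1 was higher at an unadjusted p under 0.05. Most such variants are made throughout the cell cycle from polyadenylated mRNA, which was not checked for each gene here. The median log2 fold change of the 11 was 0.0. H2ax, the variant phosphorylated at DNA breaks, had 346, 288 and 252 in KC-Tie2 kidneys and 222, 242 and 246 in Control kidneys (limma adjusted p = 0.288). H1f0, a linker variant of resting cells, had 3420, 3506 and 3440 in KC-Tie2 kidneys and 3160, 3196 and 3316 in Control kidneys (limma adjusted p = 0.495). Neither overlapped between genotypes. Of 20 measured genes of histone gene transcription and mRNA 3′ processing, 0 of 20 passed, with 0 higher and 1 lower at an unadjusted p under 0.05. The smallest p-values were those of Nfya and Nfyc, subunits of NF-Y. Nfya had 683, 731 and 793 in KC-Tie2 kidneys and 810, 830 and 879 in Control kidneys (limma adjusted p = 0.275), and Nfyc had 880, 991 and 823 in KC-Tie2 kidneys and 755, 777 and 856 in Control kidneys (limma adjusted p = 0.383). Slbp, whose protein binds the stem-loop and which was named for that role after its values were seen, averaged 303 ± 30.4 in KC-Tie2 kidneys and 306 ± 14.8 in Control kidneys (SD, n = 3 each). Of 16 measured histone chaperone and import genes, 0 passed and 0 had an unadjusted p under 0.05. The smallest p-values were those of the chaperones Nap1l1 (limma adjusted p = 0.485) and Rbbp4 (limma adjusted p = 0.489).

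Cell cycle genes gave a mixed picture beside the H3 genes. Of 22 measured S phase genes, 1 passed: E2f1, a transcription factor that drives entry into S phase, had 88.8, 103 and 82.6 in KC-Tie2 kidneys, against 36.8, 44.6 and 56.8 in Control kidneys. It rose 1.98-fold (log2 fold change 0.99 ± 0.22, limma adjusted p = 0.0463), and the groups did not overlap. The call depended on single libraries: without KC-Tie2 3, 4 S phase genes passed, and without any 1 of the other 5 libraries 0 passed, as with voom or non-robust variance. The S phase median log2 fold change was 0.218, with 5 genes higher and 2 lower at an unadjusted p under 0.05. Of 16 measured G2 and mitosis genes, 0 passed, 14 were above 0 and 6 were higher at an unadjusted p under 0.05, with a median of 0.927; without KC-Tie2 3, 5 passed. Of these 16 genes, 8 (Aurka, Aurkb, Birc5, Cdc20, Cdk1, Kif11, Plk1 and Tpx2) reached 24.78, the limit for entering the table, only in KC-Tie2 libraries. That limit pushes up the tally, the median and the sum, and nothing is read from them. Aurka, a mitotic kinase, had 30.0, 38.3 and 29.0 in KC-Tie2 kidneys, against 17.9, 19.8 and 12.2 in Control kidneys (limma adjusted p = 0.207). Kif20a, a kinesin of cytokinesis, had 63.9, 43.9 and 41.3 in KC-Tie2 kidneys, against 25.5, 28.4 and 33.9 in Control kidneys (limma adjusted p = 0.22). The G2 and mitosis genes summed to 1400, 1326 and 572 in KC-Tie2 kidneys, against 658, 454 and 560 in Control kidneys. The KC-Tie2 3 sum thus lay within the Control range. Mki67 held 29.0% of the summed value, and its KC-Tie2 3 value of 154 was below the 172 of Control 1. For Kif20a, KC-Tie2 3 was above all Control libraries, so this gene differed from the sum. The same held for Aurka, but Aurka is among the 8 genes favoured by the limit, and nothing is read from it. KC-Tie2 3 was also the lowest KC-Tie2 library in 13 of the 14 members with a log2 fold change of 1 or more, against 113 of 156 such genes in all. These 14 share reads and hold H3c2 and H3c3. Among them, H2bc22, H2ac12, H2ac11, H2ac10, H3c8, H2bc9 and H2ac4 reached 24.78 only in KC-Tie2 libraries. Nothing is read from this count. The part of cell division in the histone values was not tested.

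**Figure D5:**
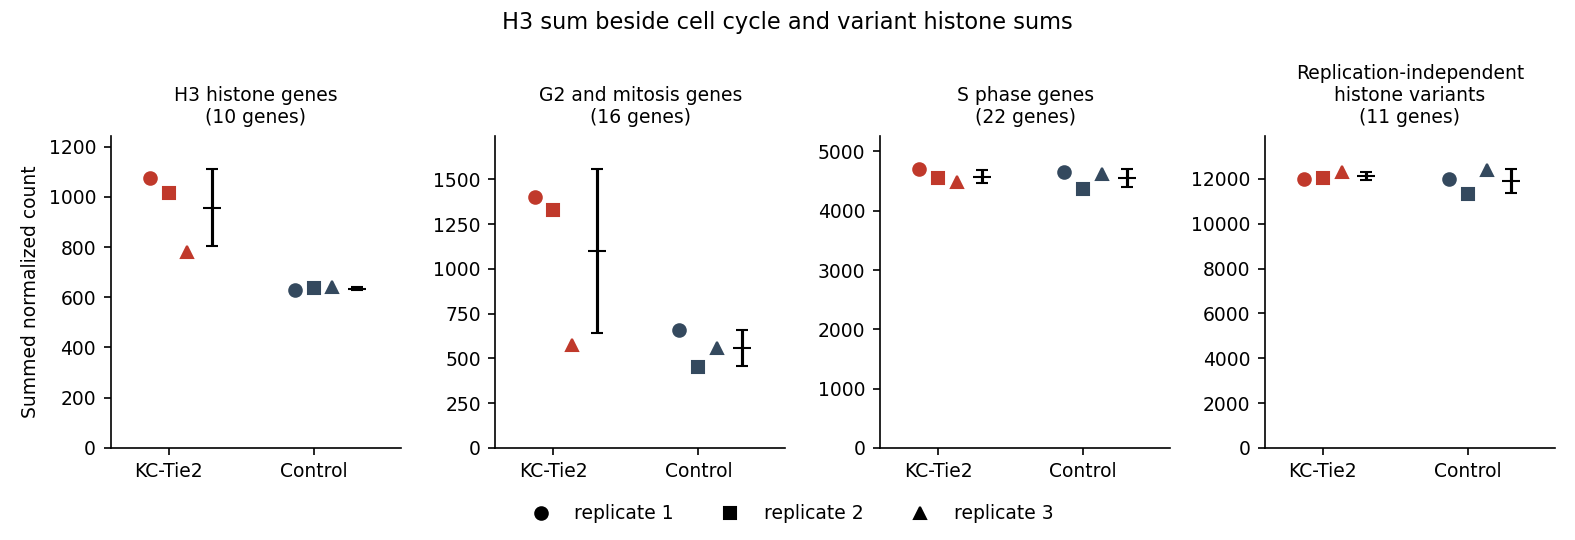
Summed normalized count (y axis, from 0) of the H3 genes and of 3 lists of other genes in the 3 KC-Tie2 and 3 Control libraries, with bars for the mean ± SD. KC-Tie2 3 lies at 572 for the G2 and mitosis genes, where Control libraries lie at 454 to 658. It lies at 782 for the H3 genes, where Control libraries lie at 627 to 639. Of the 16 G2 and mitosis genes, 8 reached 24.78 only in KC-Tie2 libraries, as did H3c8 and H3c4 of the H3 genes. The S phase and variant histone sums overlap between genotypes.

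Genes that would move with a difference in poly(A) selection were set beside the family. The 8 measured rows of RNAs made without a poly(A) tail summed to 2119509 ± 139607 in KC-Tie2 kidneys and 2147358 ± 51056 in Control kidneys (SD, n = 3 each), and 0 of 8 passed. Rn7s1, Rn7s2 and Malat1 held 94.5% of that sum. The other 5 rows summed to 129228, 122385 and 125322 in KC-Tie2 kidneys, against 111197, 102674 and 107061 in Control kidneys, and did not overlap. Over the 8 rows the median log2 fold change was 0.169, with 6 above 0, 2 higher at an unadjusted p under 0.05, and groups that did not overlap in 3 higher rows and 1 lower row. Rpph1, the RNA of RNase P, had 75261, 73002 and 76360 in KC-Tie2 kidneys, against 65525, 60447 and 61061 in Control kidneys (limma adjusted p = 0.121). Its KC-Tie2 libraries were all above the Control libraries. The row of Rmrp, the RNA of RNase MRP, with the next smallest p had 15093, 15145 and 14191 in KC-Tie2 kidneys and 14263, 11199 and 12391 in Control kidneys (limma adjusted p = 0.232), and its groups overlapped. Of 18 genes that add or shorten poly(A) tails, 1 passed: Tent5c, a poly(A) polymerase, had 371, 390 and 349 in KC-Tie2 kidneys, against 217, 290 and 253 in Control kidneys (1.47-fold, limma adjusted p = 0.0461). The groups did not overlap, and the call was kept without KC-Tie2 3 or Control 2 and lost without each of the other 4 libraries, with voom and with non-robust variance. The part of poly(A) selection in the histone values was not tested.

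Some markers of immune cells differed between genotypes in the same libraries. Of 10 neutrophil markers, 3 were measured, and these (Csf3r, S100a8 and S100a9) rose. All 3 reached the limit of 24.78 only in KC-Tie2 libraries, so they could hardly have entered the table as lower genes, and their count is no support for a rise of the list. They had a sum of 145, 118 and 58 in KC-Tie2 kidneys, against 8, 17 and 14 in Control kidneys. Of 10 macrophage markers, 10 were measured and 3 rose (C1qa, C1qb and C1qc), with a sum of 3009 ± 294 in KC-Tie2 kidneys and 2341 ± 297 in Control kidneys (SD, n = 3 each). Of 10 B and plasma cell markers, 6 were measured and 3 fell (Jchain, Igha and Igkc). With 1 library left out, 0 to 3 neutrophil, 1 to 5 macrophage and 0 to 3 B and plasma cell markers passed. Of 12 erythroid markers, 9 were measured and 0 passed, with 1 lower at an unadjusted p under 0.05 and overlapping sums of 2543 to 6650 in KC-Tie2 kidneys and 2746 to 3875 in Control kidneys. Klf1, an erythroid transcription factor, had 36.6, 40.8 and 40.8 in KC-Tie2 kidneys and 54.6, 53.7 and 60.9 in Control kidneys (limma adjusted p = 0.294). Alas2, an enzyme of heme synthesis, had 122, 53.1 and 85.4 in KC-Tie2 kidneys and 73.7, 48.2 and 51.9 in Control kidneys (limma adjusted p = 0.443). Of 10 T and NK cell markers, 3 were measured, all of them reaching 24.78 only in Control libraries, and 0 passed, with 1 lower at an unadjusted p under 0.05. Cd4, a T cell coreceptor, had 13.3, 8.34 and 5.44 in KC-Tie2 kidneys and 16.8, 26.4 and 16.2 in Control kidneys (limma adjusted p = 0.316). Lck, a T cell kinase, averaged 15.4 ± 2.62 in KC-Tie2 kidneys and 15.6 ± 10.9 in Control kidneys (SD, n = 3 each; limma adjusted p = 0.92). The part of these cells in the histone values was not tested.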

How the data were processed

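RNA from 3 KC-Tie2 and 3 Control kidneys was poly(A)-selected, per the labels' protocols. The submitters' processing notes name STAR, Partek 12.5.0, DESeq2 and the mm39 build. The deposited normalized counts are a signal whose low values lie on steps that differ between libraries; they are not raw counts, and no count test was run. The deposited comparison gives p-values, a ratio, and a signed fold-change score, per the file headers; counting strand: not given in the sources used here. Values were tested as log2(value + 1) with limma 3.58.1 (trend, robust; R 4.3.3) over genes with a mean of at least 10, with Benjamini-Hochberg adjustment; a fold change on this scale understates that of low genes. The test was checked on simulated data. Members and lists were chosen with earlier results of these data known. Named are the called members, the 2 with the highest mean of each type, and the 3 largest and 3 smallest fold changes; in each list, up to 4 called genes or the 2 with the smallest p. A kidney marker that this rule names is not reported here. Also tried were quantile and TMM (trimmed mean of M values) scaling, voom, non-robust variance, pseudocounts of 0.5 and 5, minimum means of 0 and 100, a replicate block, and each library left out.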

Additional observations from a re-analysis of the deposited data

How the results depend on the processing

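The count of 4 called members was the same with pseudocounts of 0.5 and 5, without a filter and with TMM or quantile scaling. It was 2 with non-robust variance and with voom (H3c2 and H3c3), and 1 (H4c8) at a mean of at least 100, where 20 members were tested. Leaving out each library gave 0 (without KC-Tie2 2) to 6 (without KC-Tie2 3) called members, and 48 to 682 called genes in all against 297. In the context lists, 11 calls became 7 with non-robust variance, 5 with voom, 3 at a mean of at least 100, and 1 to 25 with a library left out. The H2B sum had a log2 ratio of -0.05, and 0.28 without H2bc4. The H3 sum had 0.59, and 0.41 without H3c2 and H3c3, chosen after seeing the data. Replicate numbers did not pair the libraries (correlations of deviations 0.178, -0.0956 and 0.0173), and the replicate block gave 5 members (H1f1 added) and 581 genes. Leaving out libraries, uncalled fold changes ran from -0.03 to 0.06 (H1f2), -0.08 to 0.04 (H1f4), -0.16 to 0.12 (H2ac19), -0.67 to 0.06 (H4c11) and -0.1 to 0.01 (H4c3). The cause was not tested. With 3 libraries per genotype and low values, differences in low members were poorly resolved.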

Other observations

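Between the first and last histone genes of each cluster lie 8 other genes of the table, 4 of them protein-coding. None passed limma, and 3 of 8 had a log2 fold change above 0. Zfp322a, a zinc finger gene within the chromosome 13 cluster, had 385, 443 and 453 normalized counts in KC-Tie2 kidneys and 432, 401 and 426 in Control kidneys, with overlapping libraries. Gm20634, a long non-coding RNA gene that overlaps H2ac18 on chromosome 3, had 298, 297 and 415 in KC-Tie2 kidneys and 442, 390 and 339 in Control kidneys, also overlapping.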
